A study of Mus musculus with 6 samples.

Results

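Cone nuclei in which M-opsin RNA outnumbered S-opsin RNA were described in 3 single-nucleus multiome libraries of mouse retina, a method that reads RNA and open chromatin (ATAC) from the same nucleus. A nucleus was taken as an M cone when its barcode held at least 500 unique molecular identifiers (UMIs) and at most 10% mitochondrial UMIs, when at least 4 of the cone genes Arr3, Opn1sw, Opn1mw, Pde6c, Gnat2, Cngb3, Gngt2 and Pde6h were detected with at least 8 UMIs together, when the bipolar cell genes Trpm1 and Grm6 held at most 2 UMIs, and when Opn1mw had more UMIs than Opn1sw. The rule found 732 M cones among 27225 kept nuclei. They were 259 of 9905 nuclei at 2 weeks of WIF1 overexpression, 246 of 9637 at 4 weeks and 227 of 7683 in the control. The opposite opsin order, with all other steps the same, gave 906 S cones (310 at 2 weeks, 321 at 4 weeks, 275 in the control) and is the comparison used for what sets M cones apart. M cones were thus selected on measured RNA, and the levels of these genes are given as a description with no test. Arr3, Opn1mw, Pde6c and Gnat2, which mark these cells, stood at 12061, 10122, 2134 and 2052 CPM (CPM stands for UMIs of a gene summed over nuclei and scaled to a common total) in M cones at 2 weeks, against 69.0, 47.3, 17.8 and 46.2 CPM in the nuclei that were no cones.

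Cones are the photoreceptors of daylight and colour vision. Light is caught by an opsin, which activates the cone transducin, and the transducin switches on a phosphodiesterase that lowers cyclic GMP and closes the cyclic nucleotide-gated channel. Most mouse cones make both a medium-wavelength (M) and a short-wavelength (S) opsin, with M opsin prevailing in dorsal and S opsin in ventral retina, and thyroid hormone receptor beta, encoded by Thrb, is needed for M opsin. WIF1, the Wnt inhibitory factor, is released by cells and holds Wnt ligands away from their receptors.

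All eyes came from C57BL/6J mice, with 2 eyes and 1 library per group: WIF1-2w and WIF1-4w retinas, taken 2 and 4 weeks after an AAV2/2 vector that carries Wif1 under the CMV promoter (the labels give the times with the abbreviation AVI, unexpanded), and naïve wild-type retinas as the control. The design names a Wif1 vector with a GFP reporter and another without it, does not say which of these was used, and names a GFP-only control vector, which none of the control eyes received. Whether the eyes of a group were pooled before lysis is not given in the sources used here. Injection, vector, WIF1 and library therefore cannot be told apart when a WIF1 library is set against the control. With 1 library per group no p-value was computed between libraries, and the 95% intervals given for levels, shares and ratios cover counting error only.

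The WIF1-2w, WIF1-4w and control libraries held 13528, 10334 and 8556 barcodes. M cones were shallower in RNA and deeper in ATAC in the WIF1 libraries: their median depth was 2120, 3059 and 3405 UMIs, their summed RNA was 584872, 785881 and 818280 UMIs, and their summed ATAC counts were 1843724, 1773356 and 952138. CPM are of the RNA sums, and for chromatin of the ATAC sums, unless another base is named. Their median mitochondrial share was 2.88% at 2 weeks, 2.37% at 4 weeks and 4.05% in the control. A doublet caller at the expected doublet rate marked 38, 43 and 42 M cones, which were kept. Genes described here whose direction turned without them are named, as are examples that then had too few UMIs to be compared. Pairs of libraries shared between 142 and 207 barcode sequences, 2 of them in M cones of a pair of libraries. Xist had 0 UMIs in M cones of all 3 libraries, and the Y-linked genes Ddx3y, Eif2s3y, Uty and Kdm5d were detected in each.

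M cones held a share of nuclei whose intervals overlapped in the 3 libraries. M cones made up 2.61% (2.31 to 2.95) of the 2-week nuclei and 2.55% (2.25 to 2.89) of the 4-week nuclei, against 2.95% (2.59 to 3.36) in the control. Against the control the 2-week share had a ratio of 0.885 (0.738 to 1.06) and the 4-week share one of 0.864 (0.718 to 1.04). The shares moved with the depth limit. All kept nuclei had a median of 838 UMIs at 2 weeks, 1256 at 4 weeks and 1779 in the control. Among nuclei with at least 1000 UMIs the share was 5.86% at 2 weeks, 3.63% at 4 weeks and 3.51% in the control, and the 2-week ratio to control was then 1.67. As a share of all cones, M cones made up 44.4% (40.3 to 48.6) at 2 weeks, 42.3% (38.3 to 46.5) at 4 weeks and 42.8% (38.6 to 47.2) in the control.

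The opsins chose these nuclei, so their balance is given as a description. The median M cone held 22 Opn1mw UMIs at 2 weeks, 29 at 4 weeks and 33 in the control, with a range from 1 to 86, 80 and 97. An Opn1sw UMI was found in 76 M cones at 2 weeks (29.3%, 23.9 to 35.3), in 84 at 4 weeks (34.1%, 28.2 to 40.4) and in 87 in the control (38.3%, 32.0 to 45). Bipolar cells do not make opsins, and bipolar nuclei were taken as kept nuclei with more than 2 Trpm1 and Grm6 UMIs. Their share with an Opn1sw UMI was 9.62%, 10.5% and 10.5% in the same order, at median depths of 2544, 3504.5 and 4013.5 UMIs. They include 15, 19 and 23 nuclei that met every other step of the M-cone rule, so this share does not measure free RNA alone. Thinned to 500 UMIs a nucleus, the shares were 16.2%, 19.5% and 25.1% of M cones, against 3.11%, 2.33% and 2.22% of bipolar nuclei. The M-cone shares stood above the bipolar shares in all 3 libraries, and their own intervals overlapped between libraries. Opn1sw is part of the rule, so nothing is read from these shares. Opn1mw RNA in S cones was more common still, since 74.5%, 69.2% and 77.8% of S cones at 2 weeks, at 4 weeks and in the control had an Opn1mw UMI.

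**Figure D1:**
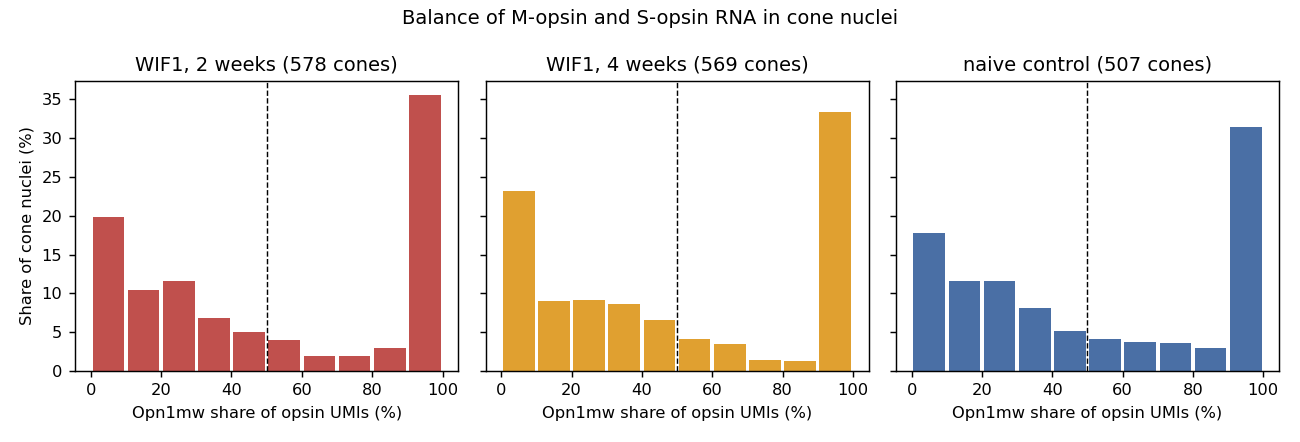
Share of cone nuclei (y axis, percent) by the percent of their opsin UMIs that came from Opn1mw (x axis, bins of 10 points), for each library, with the dashed line at equal counts. M cones lie right of the line, and the bin from 90 to 100% held 35.6% of cones at 2 weeks, 33.4% at 4 weeks and 31.4% in the control.

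Few M cones stood at the edges of the rule, and the opsin and cone-UMI edges held fewer at 2 weeks than in the other libraries. With at least 16 cone UMIs 253, 227 and 209 M cones remained at 2 weeks, at 4 weeks and in the control. Opn1mw led Opn1sw by a single UMI in 5 M cones at 2 weeks, 19 at 4 weeks and 20 in the control, with median cone UMIs of 39, 12 and 14, while 14, 14 and 28 cones had equal counts and were left out. M cones with 8 or 9 cone UMIs numbered 3, 6 and 6. Trpm1 and Grm6 held 2 UMIs in 5, 3 and 8 M cones, and 15, 19 and 23 nuclei that met every other step were left out for holding more. At the limit for mitochondrial UMIs, 43, 13 and 37 nuclei were left out.

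Sequences of the stretches before the 2 opsin starts are shown because the data bear on both: the S-opsin start was less open in M cones than in S cones, and the M-opsin start had a peak in the 2-week library. Each is the 250 bases before the annotated start in RefSeq's GRCm38.p6, 5′ to 3′ on the gene's strand, and capitals mark AGGTCA or its reverse complement TGACCT, the half-site that nuclear receptors such as the thyroid hormone receptor can bind.

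Opn1sw, chr6:29380514-29380763, minus strand: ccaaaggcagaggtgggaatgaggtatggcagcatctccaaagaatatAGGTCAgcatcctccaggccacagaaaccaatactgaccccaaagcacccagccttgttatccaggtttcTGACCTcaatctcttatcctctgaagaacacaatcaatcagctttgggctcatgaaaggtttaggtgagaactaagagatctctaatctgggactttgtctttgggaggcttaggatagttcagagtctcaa

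Opn1mw, chrX:74127216-74127465, plus strand: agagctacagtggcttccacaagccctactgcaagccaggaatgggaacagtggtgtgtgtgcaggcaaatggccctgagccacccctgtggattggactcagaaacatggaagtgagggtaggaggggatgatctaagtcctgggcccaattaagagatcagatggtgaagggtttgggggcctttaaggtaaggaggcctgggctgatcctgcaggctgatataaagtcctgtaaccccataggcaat

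The Opn1sw stretch held 2 half-site matches, which begin at -202 and -132 from the start, and the Opn1mw stretch held 0. At least 1 match occurred in 14.0% of the 32851 RefSeq mouse promoters of the same length. Neither stretch held TAATCC or its reverse complement GGATTA, a core bound by the photoreceptor factors Crx and Otx2, which 6.25% of promoters held. A match is a run of letters and not a measured binding site.

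M cones and S cones differed in chromatin at the S-opsin locus. ATAC counts took no part in the choice of nuclei, but Opn1sw RNA of the same nuclei did. Differences at and beside Opn1sw are therefore not independent of the rule, and their p-values are no separate support. Regions and genes were tested with edgeR's quasi-likelihood test on UMIs or ATAC counts summed by library and cone kind. Library was a block, and Benjamini-Hochberg adjustment ran over all features. The 3 libraries served as replicates of the difference between M and S cones, whatever their treatment. Of 26090 regions with a peak in every library, 5 were more open in M cones (0.0192%) and 8 less open (0.0307%). The region over the Opn1sw start (chr6:29380108-29381093, mm10) held 45, 29 and 21 counts in M cones at 2 weeks, at 4 weeks and in the control, and 179, 135 and 64 in S cones. As CPM these were 24.4, 16.4 and 22.1 in M cones and 70.5, 59.9 and 48.7 in S cones. M cones were lower in every library, by a log2 fold change of -1.54 ± 0.23 (SE, adjusted p = 2.11e-07).

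Other regions of the same neighbourhood changed with it. Of 6 tested regions within 50 kb of Opn1sw, 5 were less open in M cones, and all 5 passed the test, against a median log2 fold change of 0.00 over all regions. The region at chr6:29388102-29389024, which lies between Opn1sw and the neighbouring gene Ccdc136, held 0, 2 and 4 counts in M cones and 19, 63 and 13 in S cones at 2 weeks, at 4 weeks and in the control (log2 fold change -3.38 ± 0.62, adjusted p = 1.90e-04). The region over the Ccdc136 start (chr6:29396089-29396984) had 16.3, 35.5 and 35.7 CPM in M cones and 69.7, 73.3 and 60.1 CPM in S cones (-1.29 ± 0.21, adjusted p = 3.04e-06). Regions at chr6:29394073-29394990 and chr6:29397456-29398257 fell by 1.33 and 1.34 on the log2 scale.

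RNA of the genes beside Opn1sw followed the same direction. Ccdc136 (ENSMUSG00000029769, chr6:29396574-29426995) held 173, 308 and 327 UMIs in M cones and 1178, 1950 and 1675 in S cones at 2 weeks, at 4 weeks and in the control. Every M-cone value was lower than every S-cone value, with 319, 417 and 432 CPM in M cones and 2012, 2179.9 and 1844 CPM in S cones (log2 fold change -2.37 ± 0.08, adjusted p = 2.63e-56). CPM in the comparison of M with S cones are of the UMIs outside the genes of the rule and the mitochondrial genes. Calu, which encodes calumenin, a calcium-binding protein of the secretory pathway, fell by 1.54 ± 0.19 on the log2 scale (adjusted p = 1.68e-10). Atp6v1f, a proton pump subunit and the third of 3 tested genes within 100 kb of Opn1sw, had a log2 fold change of 0.01 (adjusted p = 0.996).

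Within M cones Ccdc136 also went with the opsin balance. M cones with no Opn1sw UMI had 84.0, 112 and 99.1 CPM of Ccdc136 at 2 weeks, at 4 weeks and in the control, and M cones with an Opn1sw UMI had 773, 958 and 937 CPM. S cones with an Opn1mw UMI had 1819, 1928 and 1715 CPM. In each library the level in mixed M cones lay between that of M cones without Opn1sw and that of S cones. The 95% intervals of the 3 classes, which cover counting error only, did not overlap. These classes were cut on opsin UMIs that the rule used, so their order is a description. The part of doublets and of free RNA in the mixed class was not tested.

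**Figure D2:**
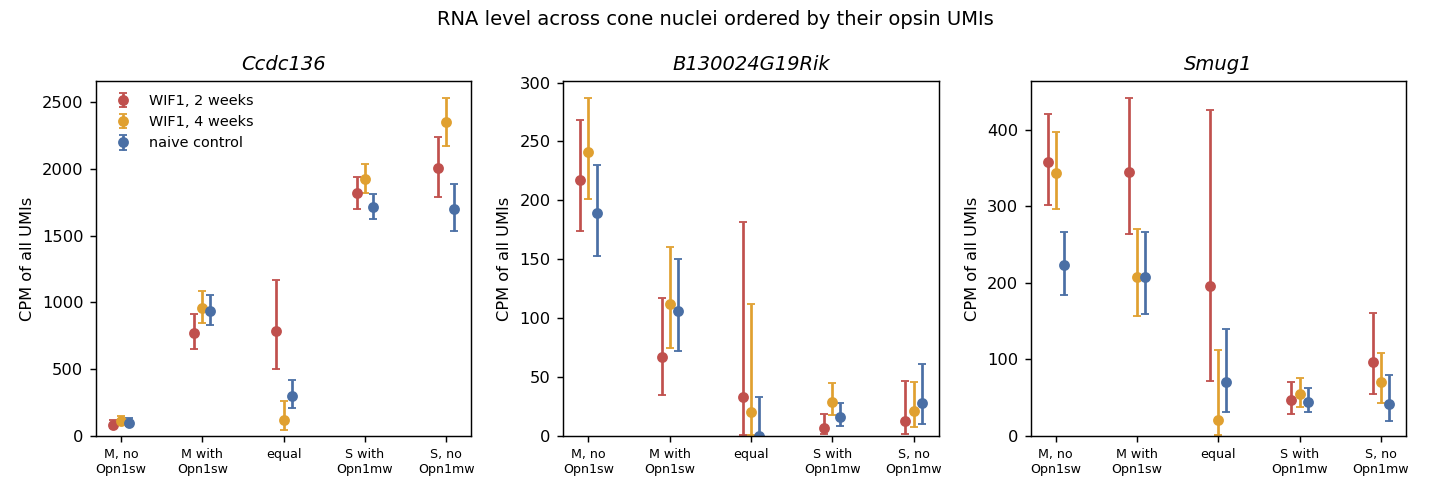
Levels of Ccdc136, B130024G19Rik and Smug1 (y axis, CPM of all UMIs) in cone nuclei ordered by their opsin UMIs (x axis), for each library. Points are sums over the nuclei of a class and bars are 95% Poisson intervals. Ccdc136 is lowest in M cones with no Opn1sw UMI in all 3 libraries, and the other genes are highest in M cones. The class with equal counts holds 14, 14 and 28 nuclei and includes nuclei with no opsin UMI.

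M cones also differed at the Nr2f2 locus. Nr2f2 encodes COUP-TFII, an orphan nuclear receptor that in the developing mouse eye marks dorsal retina. It held 52, 50 and 46 UMIs in M cones and 5, 10 and 12 in S cones at 2 weeks, at 4 weeks and in the control. M cones were higher in each library, with 95.8, 67.7 and 60.7 CPM, against 8.54, 11.2 and 13.2 CPM in S cones (log2 fold change 2.64 ± 0.27, adjusted p = 2.47e-14). All 6 tested genes within 1 Mb of Nr2f2 passed the test and were higher in M cones, against 1.74% of all genes. The long noncoding RNA B130024G19Rik had 184, 211 and 172 CPM in M cones and 8.54, 27.9 and 19.8 CPM in S cones (3.23 ± 0.19, adjusted p = 1.54e-30). Gm44532 had 169, 221 and 178 CPM in M cones and 12, 23.5 and 12.1 CPM in S cones (3.53 ± 0.20, adjusted p = 9.25e-33). The predicted genes Gm28258, Gm35842 and Gm44812 were higher in M cones by 4.41 ± 0.57, 3.36 ± 0.55 and 3.26 ± 0.43 on the log2 scale. Annotated spans of some of these genes overlap, and whether reads were counted by strand is not given in the sources used here, so reads of neighbours may be shared.

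Chromatin at Nr2f2 moved in the same direction. The region inside the gene at chr7:70361415-70362272 held 91, 111 and 67 counts in M cones and 54, 29 and 49 in S cones at 2 weeks, at 4 weeks and in the control. M cones were higher in each library, with 49.4, 62.6 and 70.4 CPM, against 21.3, 12.9 and 37.3 CPM in S cones (log2 fold change 1.45 ± 0.22, adjusted p = 6.16e-07). All 7 tested regions within 200 kb were more open in M cones, with a median of 1.71, and 1 passed the test. Among those that did not, the region at Gm44532 had a log2 fold change of 2.08 (adjusted p = 0.0541) and that at B130024G19Rik 2.88 (adjusted p = 0.0876). The stretch before the Nr2f2 start is shown because 6 of the 10 genes with the highest fold changes in M cones lie at this locus. Capitals mark TAATCC or GGATTA, and the stretch lies outside the tested region.

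Nr2f2, chr7:70366747-70366996, minus strand: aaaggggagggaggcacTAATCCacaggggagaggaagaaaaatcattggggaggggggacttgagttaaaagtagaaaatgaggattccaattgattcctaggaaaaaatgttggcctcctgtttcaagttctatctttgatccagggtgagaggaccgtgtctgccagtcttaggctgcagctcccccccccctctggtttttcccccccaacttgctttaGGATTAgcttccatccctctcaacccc

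It held 2 matches, beginning at -233 and -27 from the start, and no half-site of nuclear receptors.

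Over all genes, 162 of 9285 tested were higher in M cones (1.74%) and 129 lower (1.39%) at an adjusted p under 0.05. The direction was the same in all 3 libraries for 276 of these 291 genes (94.8%), against 2845 of all 9285 tested genes (30.6%). Outside the Nr2f2 locus, the 10 genes with the highest fold changes included Smug1, a DNA repair glycosylase, with 381, 318 and 235 CPM in M cones and 63.2, 62.6 and 47.3 CPM in S cones at 2 weeks, at 4 weeks and in the control (2.39 ± 0.14, adjusted p = 1.87e-32). The cadherin Cdh12 was higher in M cones by 3.09 ± 0.21 and the guanine nucleotide exchange factor Dock11 by 2.59 ± 0.41. The predicted gene 4930434J06Rik was higher by 2.04 ± 0.32. Samd7, a Polycomb-associated protein of photoreceptors on the list of identity factors, was higher by 1.61 ± 0.16.

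Genes lower in M cones were led by the homeobox gene En2, with 0, 1 and 1 UMIs in M cones and 25, 13 and 16 in S cones (log2 fold change -4.34 ± 0.66, adjusted p = 2.59e-07). Wscd2 held 6, 0 and 11 UMIs in M cones, against 52, 42 and 49 in S cones (-2.86 ± 0.32). Socs3, a feedback inhibitor of cytokine signalling, held 4, 5 and 9 UMIs in M cones and 26, 37 and 43 in S cones (-2.33 ± 0.34). For all 3 genes M cones were below S cones in every library. Eya1, a transcriptional coactivator of eye development, fell by 1.96 ± 0.19, the transmembrane protein Tmtc1 by 1.99 ± 0.31, and 5430419D17Rik by 2.19 ± 0.11 on the log2 scale. The remaining genes of the 10, 1110017D15Rik, Gm10419 and A930009A15Rik, had log2 fold changes of -2.10, -2.08 and -1.89.

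Genes of phototransduction outside the rule were mostly lower in M cones, by small margins. Of 15 tested 13 were lower, with a median log2 fold change of -0.06, beside 0.00 over all genes, and 3 passed the threshold, all lower in M cones, against 1.39% of all genes. The cone transducin subunit Gnb3 fell by 0.39 ± 0.06, and the guanylate cyclase activators Guca1a and Guca1b by 0.48 ± 0.06 and 0.46 ± 0.10. Of 23 cone identity factors, 3 were higher and 1 lower in M cones, against 1.74% and 1.39% of all genes, with a median of -0.06. Thrb had 1390.3, 1436 and 1258 CPM in M cones and 1250.2, 1172 and 936 CPM in S cones, a log2 fold change of 0.28 ± 0.07 (adjusted p = 5.33e-03). M cones were higher in each library, and 5 of 9 alternative fits kept the gene past the threshold. Split by opsin UMIs, as CPM of all UMIs, M cones with no Opn1sw UMI had 1257, 1325 and 1008 of Thrb. M cones with an Opn1sw UMI had 1367, 1401 and 1444, and S cones with an Opn1mw UMI had 1335, 1268 and 995. Of these classes, S cones with no Opn1mw UMI were lowest in each library, at 615, 727 and 422. Rxrg, the thyroid receptor's retinoid partner, had a log2 fold change of -0.53 ± 0.18 (adjusted p = 0.0962) and Crx 0.20 ± 0.08 (adjusted p = 0.264). Among 6 tested genes of a list of dorsal and ventral genes, Nr2f2 was higher in M cones and Ccdc136 and Tafa3 were lower. The shares over all genes were again 1.74% and 1.39%. Tafa3, a secreted protein, had a log2 fold change of -0.31 ± 0.09.

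Synapse and Wnt genes followed no common direction. Of 28 ribbon synapse genes 1 was higher and 2 lower in M cones, against 1.74% and 1.39% of all genes. The presynaptic adhesion molecule Nrxn3 held 512, 714 and 1158 UMIs in M cones and 1517, 2860 and 2621 in S cones, lower in M cones in each library (log2 fold change -1.37 ± 0.07, adjusted p = 1.00e-35). The release-site protein Rims2 fell by 0.23 ± 0.06 on the log2 scale, and Dmd, the dystrophin gene, was higher by 0.25 ± 0.05. Of 21 Wnt pathway genes 2 passed the threshold, both lower in M cones, against 1.39% of all genes. The R-spondin receptor Lgr5 fell by 0.98 ± 0.13 and the corepressor Tle1 by 0.96 ± 0.19. Tcf4, a transcription factor the study names, had a log2 fold change of 0.19 (adjusted p = 0.382). Müller glia markers moved with the comparison: 6 of 9 tested passed the threshold, all higher in M cones, against 1.74% of all genes, with a median of 0.93 over the 9. Of these Glul was higher by 0.94 ± 0.13 and Rlbp1 by 0.93 ± 0.22, and Apoe had a log2 fold change of 0.70 ± 0.11, which was -0.30 without marked doublets. Both tested endothelial markers, Flt1 and Kdr, were higher in M cones too. Single nuclei held much of this RNA: in control M cones 1 nucleus held 68.4% of the Aqp4 UMIs, 51.4% of Rlbp1, 41.2% of Glul, 62.5% of Kdr and 43.8% of Flt1. Markers of other cells went both ways. Of 13 rod markers 11 were lower in M cones, of which Sag, the rod arrestin, passed the threshold (-0.47 ± 0.05). The bipolar marker Cabp5 fell by 1.21 ± 0.23 on the log2 scale, and the horizontal cell marker Ndnf was higher by 1.11 ± 0.28. Their part in the differences between M and S cones was not tested.

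Outside the 2 loci, the region over the start of Xkr7 (chr2:153031561-153032449) had 3.25, 1.69 and 0 CPM in M cones and 24.4, 16.4 and 32.0 CPM in S cones (log2 fold change -3.54 ± 0.47, adjusted p = 1.85e-09). Among the 13 regions that passed, this one had the largest fold change, and M cones were lower in every library. The region over the start of Pcdh17, a protocadherin, was more open in M cones by 1.16 ± 0.25 (adjusted p = 8.25e-03). Regions at chr5:133449614-133450551 and chr15:88612471-88613381 had log2 fold changes of -1.78 and -1.70. The remaining 3 regions that passed, chr9:35304974-35305883, chr2:98666668-98667480 and chr2:98662125-98663043, differed far more between libraries than between cone kinds. The region at chr2:98666668 had 96.0, 1147 and 2408 CPM in M cones and 109, 365 and 2452 CPM in S cones, higher in M cones in 1 of 3 libraries. Without the WIF1-4w library the chr2 regions had log2 fold changes of -0.09 and -0.05, against 0.54 and 0.48 with it. The stretch before the Xkr7 start is shown because it lies in that region over the start. It held 1 half-site match, at -75 from the start, in capitals.

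Xkr7, chr2:153031602-153031851, plus strand: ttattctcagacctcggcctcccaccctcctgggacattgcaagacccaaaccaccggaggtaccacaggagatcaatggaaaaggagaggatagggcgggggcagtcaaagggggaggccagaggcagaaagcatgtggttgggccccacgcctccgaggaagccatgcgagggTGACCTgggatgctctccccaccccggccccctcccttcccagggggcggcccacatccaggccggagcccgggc

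**Figure D3:**
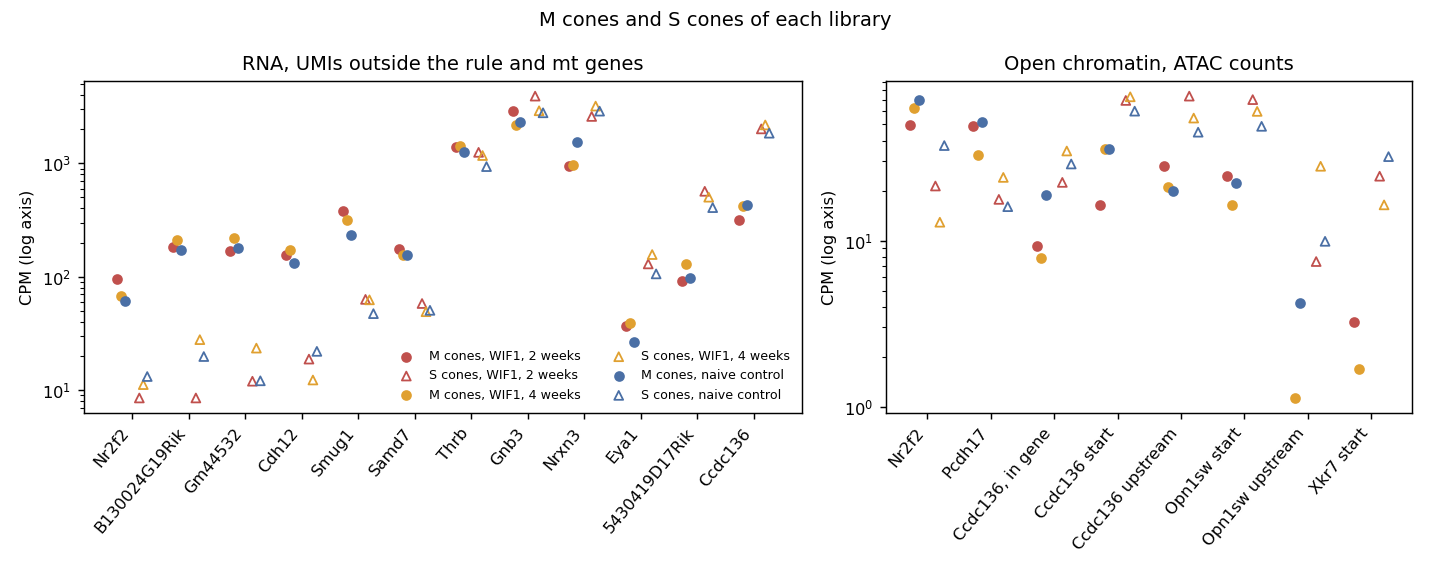
M cones (filled circles) and S cones (open triangles) of each library, as RNA CPM outside the rule and mitochondrial genes (left) and ATAC CPM (right), both on log axes. Values of 0 are not drawn, which leaves out M cones at the Xkr7 start in the control and upstream of Opn1sw at 2 weeks. M cones stand above S cones in every library at Nr2f2 and below them at Ccdc136, Opn1sw and Xkr7.

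The number of genes called depended on the test. DESeq2 called 19 genes higher and 21 lower in M cones, and all 40 were among the 291. Without the WIF1-4w library edgeR called 92 higher and 84 lower. For regions DESeq2 called 0 higher and 2 lower, with 125 higher and 125 lower at an unadjusted p under 0.05. Without the WIF1-2w library edgeR called 0 regions higher and 1 lower, with 594 higher and 650 lower at an unadjusted p under 0.05. Nr2f2, B130024G19Rik, Gm44532, Smug1, Cdh12, Samd7, Ccdc136, Eya1 and Nrxn3 passed the threshold under all 9 alternatives run.

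Between libraries, M cones of the WIF1-2w retina were set against control M cones for what changed in them, with a difference called when it was at least 2-fold with at least 30 UMIs in the higher library. Of 5614 genes 137 were higher at 2 weeks (2.44%) and 249 lower (4.44%), and the median log2 ratio of these genes was -0.07. Genes of antigen presentation were among those higher at 2 weeks. Of 13 measured members 9 were higher at 2 weeks, with a median log2 ratio of 0.86 (0.17 to 1.18 over 9 alternatives). Of all measured genes 50.4% were higher, with a median of 0.01. Of the 6 members with enough UMIs 3 were called higher, against 2.44% of all genes. H2-K1 and B2m, with 18 and 11 UMIs in the control, met the limit of 30 UMIs through the 2-week library alone. The 3 of 6 is therefore a description and no support. H2-K1, a classical MHC class I heavy chain that displays peptides to T cells, held 135 UMIs at 2 weeks, 17 at 4 weeks and 18 in the control, or 231, 21.6 and 22 CPM. Only the 2-week library was high, at 10.5 times the control (6.39 to 18.2). B2m, the light chain of MHC class I, held 63, 6 and 11 UMIs, 8.01 times the control at 2 weeks (4.19 to 16.9). H2-D1, the other classical heavy chain, held 86, 34 and 47 UMIs, 2.56 times the control (1.77 to 3.74).

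These 3 genes were also high outside M cones. S cones had ratios of 5.29 for H2-K1, 30.6 for B2m and 2.99 for H2-D1 at 2 weeks. In all kept nuclei other than cones H2-K1 stood at 269 CPM at 2 weeks, 27.7 at 4 weeks and 30.2 in the control, and B2m at 292, 48.2 and 40.2 CPM. The 2-week level in M cones was below that of the other nuclei for both genes. Immunoglobulin RNA, which cones do not make, was present at 2 weeks too: Igkc held 84 UMIs in M cones at 2 weeks, 0 at 4 weeks and 0 in the control, at least 39.2 times the control with the control set to 3 counts, and stood at 723 CPM in the other nuclei. Ighg2c held 38, 0 and 0 UMIs, with 73.7% of them in 1 nucleus. Microglia markers summed to 68.4 CPM in M cones at 2 weeks, 17.8 at 4 weeks and 12.2 in the control, with 9, 3 and 2 of 10 markers detected and Ptprc at 0 in all 3. The part of RNA from other cells in the MHC values was not tested. Without marked doublets the log2 ratio of H2-K1 was 3.19 and that of B2m 4.34.

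Open chromatin at promoter peaks is given as CPM of the counts in all promoter peaks of a library, over peaks that were called in each library separately. The B2m peak spanned 886 bp at 2 weeks, 875 bp at 4 weeks and 859 bp in the control, and M cones had 35.8, 11 and 18.7 CPM there, a 2-week ratio of 1.92 (1.02 to 3.87). The immunoproteasome gene Psmb8, with peaks of 873, 878 and 866 bp, had 42.1, 21.2 and 20.1 CPM (2.09, 1.15 to 4.08). M cones at 2 weeks were the highest of the 3 libraries at both. At H2-K1 the peaks spanned 893, 1533 and 1573 bp with 73.2, 43.2 and 54.5 CPM, and no ratio is given because the stretches differ. RNA of Psmb8 was near the floor, with 5, 0 and 3 UMIs.

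Interferon and injury lists had few members with enough UMIs to be called. Of 14 interferon response genes 9 were higher at 2 weeks, with a median log2 ratio of 0.45. Of the 3 with enough UMIs 0 were called, against 2.44% of all genes, and the kinase Tyk2 had 19, 10 and 5 UMIs. Of 12 genes of the photoreceptor injury response 9 were higher, with a median of 0.78, and that median was -0.03 without marked doublets. Of the 4 with enough UMIs 1 was called higher. With so few, the calls say little about either list. The metallothionein Mt1 held 41, 14 and 17 UMIs, 3.37 times the control at 2 weeks (1.88 to 6.33), with 34.1% of its UMIs in 1 nucleus, and had a ratio of 0.996 in S cones. Müller markers summed to 1296 CPM at 2 weeks, 679 at 4 weeks and 552 in the control, and all 11 were higher at 2 weeks. Apoe, a lipid carrier made by Müller glia, was 3.19 times the control, with a log2 ratio of 1.68 that became -0.37 without marked doublets.

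Genes outside the immune lists were also among the highest at 2 weeks. Wdr95 held 66 UMIs at 2 weeks, 40 at 4 weeks and 15 in the control, which is 113, 50.9 and 18.3 CPM, against at most 1.54 CPM in nuclei other than cones of any library. The levels stood in the order 2 weeks, 4 weeks, control from high to low, with ratios of 6.16 (3.48 to 11.6) and 2.78 (1.5 to 5.41), and in S cones of 2.13 and 1.11. Snhg9, a noncoding host gene of a small nucleolar RNA, held 58, 19 and 12 UMIs, 6.76 times the control at 2 weeks (3.59 to 13.8), and other nuclei had 50, 15.3 and 10.2 CPM. Crym, which binds thyroid hormone in the cytosol, held 48, 6 and 8 UMIs, with 50% of the 2-week UMIs in 1 nucleus. Ebf1, a transcription factor, held 30, 6 and 5 UMIs, 70% of those at 2 weeks in 1 nucleus. Of the Wnt genes Dvl1, an adaptor downstream of Frizzled receptors, held 56, 24 and 37 UMIs (2.12, 1.37 to 3.3), and its promoter counts went the other way (0.643, 0.49 to 0.844, over peaks of 899 bp at 2 weeks and 900 bp in the control).

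The genes lowest at 2 weeks were of 2 kinds: a pair found in nearly every M cone of the other libraries, and genes found in few M cones. AY036118 held 44, 1017 and 978 UMIs and Gm42418 168, 2141 and 3438 UMIs, and both annotate stretches of ribosomal RNA sequence. They were found in 226 and 242 of the 4-week M cones and in 221 and 227 of the control ones. Their 2-week ratios were 0.0629 (0.0454 to 0.0851) and 0.0684 (0.0582 to 0.0798), and in other nuclei AY036118 stood at 80.6, 1052 and 1017 CPM. Gucy2f, a photoreceptor guanylate cyclase, held 5, 45 and 41 UMIs, with a ratio of 0.171 (0.0526 to 0.431). Nnat held 3, 30 and 34 UMIs, Gsg1 11, 78 and 121, Camk4, a calmodulin-dependent kinase, 4, 28 and 34, and Sgcz, a sarcoglycan, 4, 18 and 40. Lrrtm3, a synaptic adhesion protein, held 2, 25 and 34 and Gm19951 1, 21 and 30. The 2-week library was the lowest for each of these genes. Few nuclei carried them at 4 weeks and in the control: Lrrtm3 was found in 6 and 11 M cones, Sgcz in 5 and 9, Gsg1 in 9 and 18, Nnat in 11 and 12, Camk4 in 8 and 15, Gm19951 in 15 and 24 and Gucy2f in 23 and 27. A single nucleus held 43.3% of the Nnat UMIs and 50% of the Sgcz UMIs at 4 weeks.

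**Figure D4:**
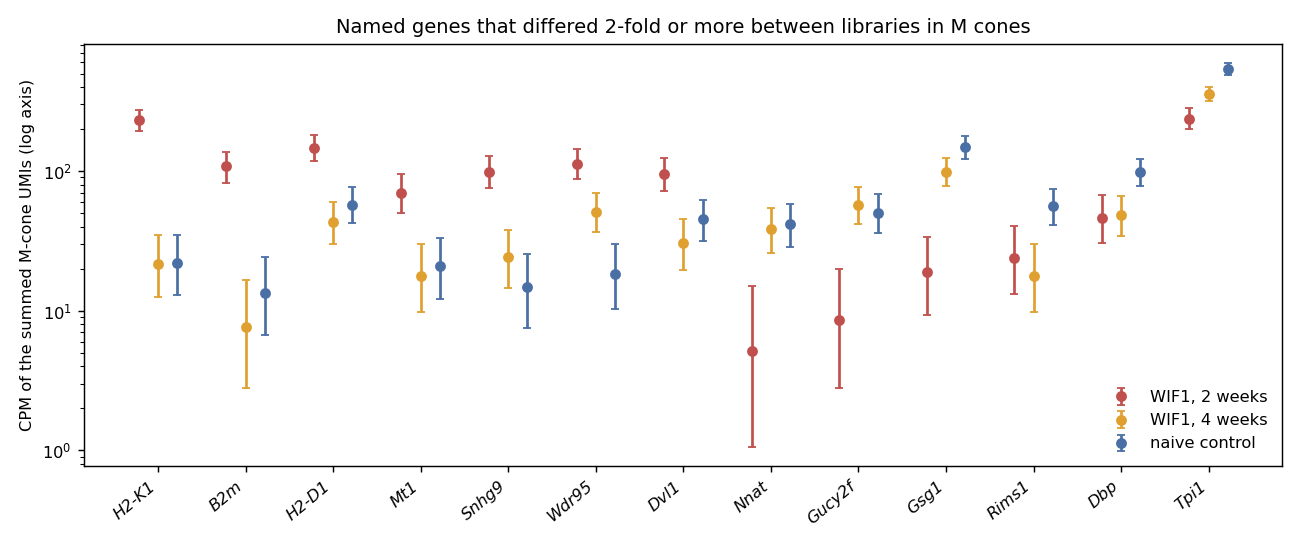
Level of named genes in M cones of each library (y axis, CPM of the summed M-cone UMIs on a log axis), with 95% Poisson intervals that cover counting error only. H2-K1, B2m, H2-D1, Mt1, Snhg9 and Wdr95 are highest at 2 weeks, and Nnat, Gucy2f and Gsg1 are lowest there. Rims1, Dbp and Tpi1 are highest in the control.

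Phototransduction genes went both ways in M cones. The list holds the 8 cone genes of the rule, so its counts between libraries rest partly on values that chose the nuclei and are a description. Of 23 genes 11 were higher at 2 weeks and 12 at 4 weeks, with median log2 ratios of -0.04 and 0.05, whose signs changed under 3 and 2 of 9 alternatives. Cone arrestin, Arr3, held 7054 UMIs at 2 weeks, 7110 at 4 weeks and 5417 in the control, or 12061, 9047 and 6620 CPM. Both WIF1 libraries were above the control, by ratios of 1.82 (1.76 to 1.89) and 1.37 (1.32 to 1.42), and S cones by 1.63 and 1.32. Arr3 was detected in 99.6% of M cones at 2 weeks, 97.6% at 4 weeks and 93.0% in the control. The part of M cones with few cone UMIs in these ratios was not tested. Opn1mw had 10122, 9219 and 8869 CPM, with ratios of 1.14 and 1.04. The phosphodiesterase subunit Pde6c had ratios of 1.22 and 1.17, and the channel subunit Cngb3 of 1.37 and 1.04. The small subunits were below the control in both libraries: Gngt2, the transducin gamma chain, at 0.756 and 0.635, and Pde6h, the inhibitory phosphodiesterase subunit, at 0.8 and 0.645. The transducin alpha chain Gnat2 stood at 0.874 and 0.841 and recoverin, Rcvrn, at 0.538 and 0.696. None of these ratios reached 2-fold in either direction, and Gucy2f was the 1 member of the list called.

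Factors of cone identity also went both ways. Of 24 measured at 2 weeks 11 were higher, and of 25 at 4 weeks 13, with 0 called in either. Thrb had 1291, 1350.1 and 1165 CPM at 2 weeks, at 4 weeks and in the control, ratios of 1.11 (1.01 to 1.22) and 1.16 (1.06 to 1.27). Crx had 556, 498 and 534 CPM, and Rxrg 54.7, 52.2 and 61.1. The transcription factor Casz1, a member of this list, had 831, 609.5 and 499 CPM, the order of 2 weeks, 4 weeks, control seen for Arr3. Nrl and Nr2e3, which direct the rod fate, had 47.9, 123 and 179.6 CPM and 59.8, 95.4 and 119.8 CPM.

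RNA of rod markers in M cones also differed between libraries. The 13 rod markers summed to 10309.9, 10523 and 13749.6 CPM, or 6030, 8270 and 11251 UMIs. Sag alone held 3469, 3330 and 3800 of these UMIs. As CPM of the UMIs outside the rule and mitochondrial genes it was highest at 2 weeks, with 6388, 4506 and 5016. How much of the Sag RNA came from rods was not tested. At 2 weeks 12 of 13 markers were below the control, 8 of them called, against 4.44% of all genes. At 4 weeks 12 of 13 were below it with 0 called, against 2.47%. Rods hold most nuclei of the retina, and the part of their RNA in the other differences was not tested.

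Housekeeping lists were lower in both WIF1 libraries. Ribosomal protein genes were lower in 73 of 80 at 2 weeks and in 79 of 80 at 4 weeks, with median log2 ratios of -0.58 and -0.56 and 10 and 1 called lower, against 4.44% and 2.47% of all genes. The 1 of 80 at 4 weeks is below the share over all genes. Nuclear genes of the respiratory chain were lower in 28 of 37 and in 37 of 37, with medians of -0.20 and -0.49. Of glycolysis genes 20 of 26 and 24 of 27 were lower, with medians of -0.33 and -0.38. Tpi1, triosephosphate isomerase, held 139, 280 and 442 UMIs, with ratios of 0.440 (0.361 to 0.534) at 2 weeks and 0.660 (0.566 to 0.768) at 4 weeks. Aldoa, the aldolase, had 1236, 1280.1 and 2036 CPM, while hexokinase 2, Hk2, had 1284, 1107 and 925. Mitochondrially encoded RNA, which is made outside the nucleus, summed to 34508, 28744 and 43474 CPM and was lower in both WIF1 libraries as well. Its part in these lists was not tested.

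**Figure D5:**
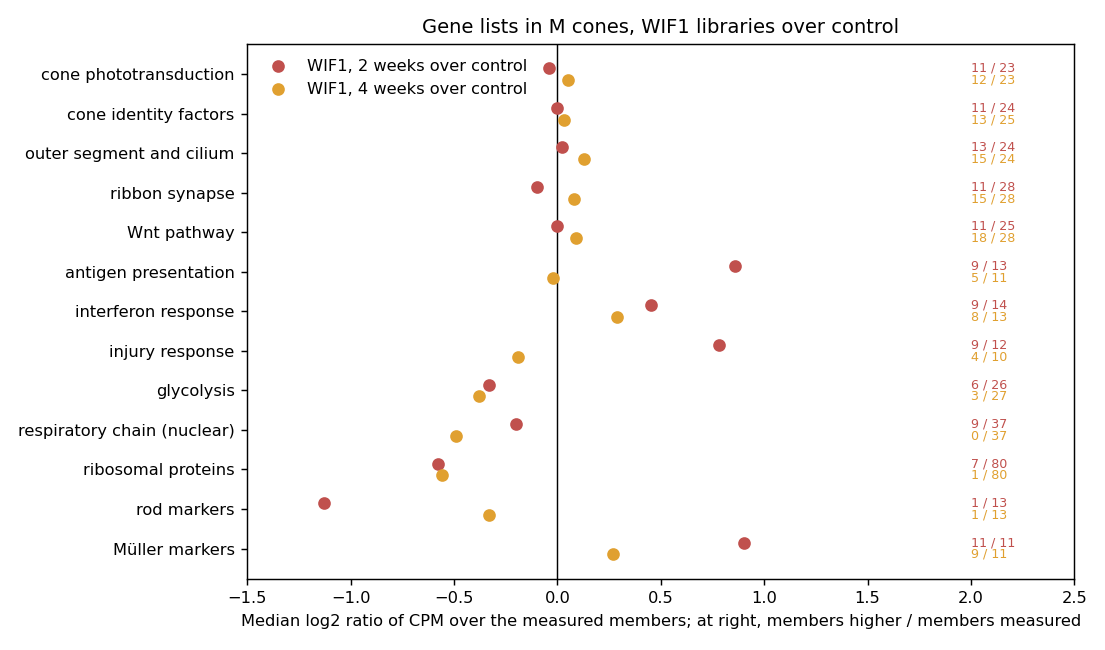
Median log2 ratio of CPM over the measured members of each list in M cones (x axis), at 2 weeks and at 4 weeks over control, with the number of members higher and measured at the right. Ribosomal protein, respiratory chain and glycolysis lists lie below 0 at both times, and antigen presentation lies at 0.86 at 2 weeks and at -0.02 at 4 weeks.

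At 4 weeks fewer genes differed from the control. Of 5838 genes 47 were higher (0.805%) and 144 lower (2.47%), with a median log2 ratio of 0.03. The highest was Ttc26, a component of intraflagellar transport in cilia, with 19 UMIs at 2 weeks, 31 at 4 weeks and 8 in the control, a 4-week ratio of 4.03 (1.81 to 10.2). Rgs6, a regulator of G protein signalling, held 40, 68 and 21 UMIs, with 39.7% of the 4-week UMIs in 1 nucleus. Gbe1, the glycogen branching enzyme, held 39, 66 and 23 UMIs, Gigyf1 33, 39 and 15, Catsper2 26, 36 and 14, Atl1, an endoplasmic reticulum GTPase, 12, 32 and 11, and Slc25a26, a mitochondrial carrier, 12, 33 and 13. Both WIF1 libraries were above the control for Rgs6, Gbe1, Gigyf1 and Catsper2, while Atl1 and Slc25a26 were high at 4 weeks alone.

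The genes lowest at 4 weeks came from few nuclei of the control. Slit2, an axon guidance ligand, held 94, 4 and 94 UMIs, with 68.1% of the control UMIs in 1 M cone. Nrg1, a growth factor, held 37, 4 and 86 UMIs with 91.9% in 1 control nucleus, and its receptor Erbb4 held 6, 0 and 48 with 93.8% in 1. Lingo2 (14, 2 and 67 UMIs) and Nxph1 (12, 1 and 56) were likewise held at 89.6% and 83.9% by 1 control nucleus. Without marked doublets Slit2, Nrg1 and Erbb4 fell under 30 UMIs in the 4-week and control libraries and were no longer tested. For Nrg3, Csmd1 and Gm30382 that share was 28.3%, 30.2% and 26.0%, and they held 30, 4 and 53 UMIs, 32, 4 and 53, and 27, 4 and 50. Their 4-week ratios were 0.0786, 0.0786 and 0.0833. A difference from the control that spread over more nuclei was that of Dbp, an output gene of the circadian clock, with 27, 38 and 81 UMIs and ratios of 0.466 (0.29 to 0.729) at 2 weeks and 0.488 (0.323 to 0.727) at 4 weeks. Rims1, a scaffold of the synaptic release site, held 14, 14 and 46 UMIs, with ratios of 0.426 (0.216 to 0.788) and 0.317 (0.161 to 0.587). Both WIF1 libraries lay below the control for both genes. Rims1 was found in 7, 11 and 19 M cones, at 23.9, 17.8 and 56.2 CPM, and nuclei other than cones had 125, 126 and 155 CPM. Bipolar markers summed to 597, 813 and 1083 CPM in M cones. The part of RNA from other cells in the Rims1 values was not tested. The times of day at which the eyes were taken are not given in the sources used here.

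Set directly against 2 weeks, 4-week M cones had 150 of 5453 genes higher (2.75%) and 108 lower (1.98%). The highest were AY036118 and Gm42418, at 17.2 times (12.7 to 23.8) and 9.48 times (8.1 to 11.2) the 2-week level, followed by Nnat at 7.44 and Gucy2f at 6.7. Gsg1 stood at 5.28, Saxo2 at 4.61, Cdr2 at 4.57 and Gm26917 at 4.28 times the 2-week level. Cep290, a protein of the connecting cilium, held 281 UMIs at 4 weeks and 102 at 2 weeks, 2.05 times as many by CPM (1.63 to 2.6). The MHC genes were lower at 4 weeks, H2-K1 at 0.0937 times the 2-week level (0.053 to 0.156), B2m at 0.0709 and H2-D1 at 0.294. Slit2, with 4 UMIs at 4 weeks and 94 at 2 weeks, was at 0.0317, and 44.7% of its 2-week UMIs lay in 1 nucleus. The 4-week library stood near the control for these MHC genes. The comparisons with the control share the control library.

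The transgene was not seen in M cones. Wif1 had 0 UMIs in M cones of all 3 libraries, where a count of 0 allows up to 3 in each, and 1.30, 2.23 and 0.112 CPM in nuclei that were no cones at 2 weeks, at 4 weeks and in the control. Whether RNA of the vector would be counted as Wif1 is not given in the sources used here. Tcf4 had 429, 481 and 419 CPM, ratios of 1.02 (0.867 to 1.21) at 2 weeks and 1.15 (0.989 to 1.33) at 4 weeks. Tcf7l2, which acts in the nucleus downstream of Wnt, held 8, 16 and 7 UMIs. Of 25 measured Wnt genes 11 were higher at 2 weeks, and of 28 at 4 weeks 18, with medians of 0.00 and 0.09, beside 50.4% and 52.0% of all genes higher. At peaks near the annotated starts of Tcf4 M cones had 143, 171 and 309 CPM of promoter-peak counts at 2 weeks, at 4 weeks and in the control, although the peaks called there were longer in the WIF1 libraries (27506, 22098 and 19083 bp). The stretches differ between the libraries, so no ratio is given, and S cones had 145, 159 and 189.8 CPM.

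Chromatin at promoters differed 2-fold at few genes, over peaks whose lengths can differ between libraries. The genes with a promoter peak in every library numbered 15585. Of 11623 with at least 30 counts 283 were higher and 223 lower in M cones at 2 weeks. Of 11484 at 4 weeks 162 were higher and 158 lower. The balance depended on the scale: as CPM of all ATAC counts, 225 were higher and 301 lower at 2 weeks, and 154 and 176 at 4 weeks. At the start of Arr3, whose RNA was 1.82 times the control, M cones had 31.9, 33.0 and 25.8 CPM over peaks of 906, 896 and 877 bp, a 2-week ratio of 1.24 (0.694 to 2.29). Near the start of Opn1mw peaks were called in the 2-week library alone, 2 peaks of 1259 bp together. They held 59 counts in M cones and 29 in S cones, or 46.0 and 16.2 CPM. In all, 103911 peaks were called at 2 weeks, 75686 at 4 weeks and 54429 in the control. At the start of Opn1sw M cones had 35.1, 22.8 and 30.1 CPM over peaks of 919, 859 and 931 bp, and the ratios of 1.16 (0.678 to 2.06) and 0.756 (0.416 to 1.39) have intervals that hold 1.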

How the data were processed

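Counts were used as deposited: per the file headers, the matrices hold whole-number counts of RNA UMIs per gene and of ATAC counts per peak for each barcode, made with Cell Ranger ARC 2.0.1, and per the submitters' processing notes on mm10. Filters on barcodes before deposit are not given in the sources used here. Peaks were called in each library separately, so chromatin was compared over the 44580 of 117835 merged regions with a peak in all 3 libraries, or at peaks within 1000 bp of annotated starts. Start and end positions in the deposited feature lists carry no score.

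Nuclei were chosen by the rule given in the report. The members and the gene lists were chosen with earlier results of these data known. Doublets were scored with Scrublet in scanpy 1.11.5 in each library, and since its automatic threshold marked 327, 0 and 0 nuclei in the WIF1-2w, WIF1-4w and control libraries, the expected rate was used instead. Doublets stayed in, and leaving them out was an alternative.

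Between libraries, UMIs of M cones were summed and given as CPM with exact Poisson intervals. Ratios have conditional exact binomial intervals and shares exact Clopper-Pearson intervals. A library under 3 counts was set to 3 for bounds, calls, list medians and the ranking of genes. UMIs and counts of 1 library are not independent samples of a treatment, so all these intervals cover counting error only. List members were measured with at least 10 UMIs over both libraries.

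M cones were tested against S cones with edgeR 4.0.16 (quasi-likelihood test, library as a block, Benjamini-Hochberg adjustment, threshold 0.05) in R 4.3.3, leaving out the 10 genes of the rule and mitochondrial genes. DESeq2 1.42.0 was an alternative. The scripts were tested on simulated data.

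From each library comparison the 8 highest and 8 lowest ratios are named, over genes with at least 30 UMIs in the higher library. It also names list members past 2-fold and, for M over S cones, the 10 genes and 10 regions with the largest fold in each direction past the threshold. Rule genes, Thrb, Rxrg, Nrl, Nr2e3, Crx, Gnb3, Wif1, Tcf4 and Tcf7l2 are always given. Not all list members past 2-fold are described, and 1 is not reported here. Gene positions and sequences are RefSeq's for GRCm38.p6.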

Additional observations from a re-analysis of the deposited data

Results flagged for a closer look

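The transcription factor Ebf1 had a ratio of 8.39 (3.22 to 27.7) at 2 weeks over control in M cones and of 0.282 (0.128 to 0.558) in S cones. It was taken up because the library difference had opposite directions in M and S cones with both intervals away from 1. M cones held 30 Ebf1 UMIs at 2 weeks, 6 at 4 weeks and 5 in the control, and 70% of those at 2 weeks were in 1 nucleus.

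Nrg3, a ligand of Erbb4, had a ratio of 0.0992 (0.0254 to 0.282) at 4 weeks over 2 weeks in M cones and of 4.55 (1.92 to 13.1) in S cones, again in opposite directions. M cones held 4 Nrg3 UMIs at 4 weeks and 30 at 2 weeks, and 36.7% of the 2-week UMIs were in 1 nucleus. With 1 library per group the difference between M and S cones was not tested for either gene, and many genes were looked at to find these.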

How the results depend on the processing

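Of 129 counts and ratios of comparisons recomputed under the alternatives, 100 stayed within their limits and 29 did not. Of 457 list medians 449 stayed, and of 1343 values of single genes and regions 1133 stayed, 164 no longer passed the threshold, 42 moved and 4 turned direction. With at least 1000 UMIs a nucleus the M-cone share had a ratio of 1.67 at 2 weeks over control and of 0.620 at 4 weeks over 2 weeks. With at least 60 UMIs in the higher library, 45 genes were higher and 121 lower at 2 weeks, 10 and 59 at 4 weeks, and 62 and 33 at 4 weeks over 2 weeks. With M cones thinned to 500 UMIs the counts were 37 and 53, 20 and 17, and 42 and 25, and fewer genes were tested under both alternatives. Of the genes called at 4 weeks the share that was higher was 24.6%, 14.5% with at least 60 UMIs and 54.1% when thinned, and at 2 weeks it was 35.5% and 28.4% on the TMM scale.

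For M over S cones DESeq2 called 19 genes higher and 21 lower, and 0 regions higher and 2 lower. The libraries pair M and S cones, and the fit with no replicate block for library called 16 genes higher and 20 lower, and 1 region higher and 4 lower. Without marked doublets 103 genes were higher, and with the leading opsin at least 3 times the other 2 regions were. Leaving out 1 library at a time gave 92 to 141 genes higher and 84 to 109 lower, 0 to 7 regions higher and 1 to 10 lower. The low ends came without WIF1-4w for genes and without WIF1-2w for regions, and the cause was not tested. The regions at chr2:98666668 and chr2:98662125 had log2 fold changes of -0.09 to 0.94 and -0.05 to 0.96 when 1 library was left out.

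Apoe turned to -0.37 (2 weeks over control) and -0.30 (M over S cones) without marked doublets. Medians of the phototransduction, identity, outer segment and Wnt lists lay so near 0 that their sign changed under 1 or more of 9 alternatives in at least 1 comparison. That of antigen presentation at 2 weeks ranged from 0.17 to 1.18. Leaving out each gene's richest nucleus in each library was added after the data were seen and took the 4-week log2 ratio of Slit2 to -3.26, against -4.50. Shallow depth at 2 weeks limits what low genes can show.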

Other observations

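Clock and stress genes of M cones gave values outside the comparisons above. Of 16 measured circadian clock genes 4 were higher at 2 weeks and 5 at 4 weeks over control, with median log2 ratios of -0.32 and -0.11. Dbp was the 1 member called, while the clock activator Arntl held 67 UMIs at 2 weeks, 95 at 4 weeks and 102 in the control, with ratios of 0.919 and 0.970. Of 17 measured chaperone genes 4 were higher at 2 weeks and 5 at 4 weeks. Hsp90aa1, a heat shock protein, held 643, 1336 and 1503 UMIs, 0.599 times the control at 2 weeks and 0.926 times at 4 weeks.

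Among cell death genes, Bnip3l, a mitophagy receptor, held 23, 56 and 83 UMIs in M cones at 2 weeks, at 4 weeks and in the control, with ratios of 0.388 (0.233 to 0.621) and 0.703 (0.491 to 0.998). Both WIF1 libraries were below the control. Cyp51, an enzyme of sterol synthesis, held 8, 32 and 34 UMIs and was low at 2 weeks alone (0.329, 0.132 to 0.725). The ATP synthase subunit Atp5g3 had ratios of 0.681 (0.539 to 0.858) and 0.457 (0.358 to 0.580).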
